A study of Drosophila melanogaster with 4 samples.

Results

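The let-7 complex of Drosophila melanogaster comprises the miRNAs dme-let-7, dme-miR-100 and dme-miR-125. Its members were taken by name, as every row of the deposited miRNA count table named for 1 of these 3 hairpins, on either arm. The rule used no measured value. It gave 6 loci of 495, the 5p and 3p arms of each hairpin, and all 6 passed the filter on low counts that 152 loci of the table passed. Small RNAs of 19 to 29 nt had been sequenced from ovaries. 2 libraries came from flies carrying an Ars2 hairpin (Ars2_sh1, VDRC stock 106344) for knockdown in the germline, called Ars2KD 1 and 2. The 2 control libraries, wKD 1 and 2, came from flies in which a hairpin against the eye colour gene white (VDRC stock 30033) was used for germline knockdown. The driver that expressed the hairpins, the age of the flies and the number of animals per library are not given in the sources used here. Nothing in the labels says whether replicate libraries are from different flies, and the p-values below cover the spread between libraries only, part of which may be technical.

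In flies the 3 miRNAs are cut from 1 long transcript, which the steroid hormone ecdysone induces at metamorphosis. let-7 and miR-125, the fly relatives of the nematode timing miRNAs let-7 and lin-4, repress the transcription factor gene chinmo, and let-7 also represses abrupt. miR-100 belongs to the conserved miR-99, miR-100 and miR-10 group. In the ovary, let-7 has been described in somatic cells, whereas the knockdowns here were directed to the germline. Ars2 works with the nuclear cap-binding complex and has been reported to assist the processing of primary miRNA transcripts. Counts of mature arms do not tell processing from transcription, so processing of these members was not tested here. Whole ovaries hold germline and somatic cells, so fewer cells of a type and less RNA per cell cannot be told apart in these data. Small RNA tables give no level of Ars2 mRNA, so the knockdown itself was not checked here.

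The miRNA table held 653566 counts for Ars2KD 1, 3681482 for Ars2KD 2, 1056475 for wKD 1 and 4554667 for wKD 2. The libraries were more alike by number than by group. CPM means counts per 1000000 counts of the miRNA table, unless TMM scaling is named. Across the 152 tested loci, log2 CPM after edgeR's TMM scaling (prior count 2) was correlated between libraries. Across the groups r was 0.98 at number 1 and 0.96 at number 2. Inside the Ars2KD group r was 0.71, and inside the wKD group 0.74. The labels do not say what a number stands for, so comparisons of the complex between the groups are also given within each number. Log2 ratios of the related miRNAs outside the complex are given over both numbers together only. miR-184-3p, an abundant maternal miRNA, held 35.1% of the counts of wKD 2 and 47.6% of those of Ars2KD 2. The follicle cell miRNAs miR-318, miR-989 and miR-994 were present in every library, at a summed 147428, 93708, 127568 and 107709 CPM in the order Ars2KD 1, Ars2KD 2, wKD 1 and wKD 2. Their main arms moved differently within this sum. In the same order, miR-994-5p had 68308, 6928, 53499 and 14382 CPM. miR-989-3p had 69796, 82896, 64218 and 72907 CPM, and miR-318-3p 7914, 3859, 8748 and 20318 CPM. miR-8, a marker of epithelial somatic cells, summed to 154462, 4787, 100262 and 20092 CPM. The list of miR-184 and the mir-309 and mir-310 clusters summed to 146885, 487260, 137516 and 416609 CPM. Most of this was miR-184-3p, with 119749, 475791, 115273 and 350528 CPM, so the sum mainly reads 1 miRNA. The neuronal miRNA miR-124 had 0 counts in all 4 libraries. Testis miRNAs (miR-959 to miR-964) summed to between 117 and 434 CPM. The muscle list (miR-1 and miR-133), which ovaries with their muscle sheath can hold, summed to between 8147 and 17608 CPM.

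All 3 hairpins lie close together in 1 exon on the left arm of chromosome 2. The gene lncRNA:let7C spans 2L:18455717-18473132 on the plus strand (BDGP6, the dm6 assembly) and has 3 annotated exons. The mir-100, mir-let7 and mir-125 hairpins follow each other in this order inside exon 2 (2L:18470869-18472497). The gap between the mir-100 and mir-let7 hairpins is 500 bp, that between mir-let7 and mir-125 is 203 bp, and the 3 hairpins together span 991 bp. The first hairpin starts 15717 bp from the annotated start of the gene. miR-100-5p maps to 2L:18471445-18471466 and miR-100-3p to 2L:18471484-18471505. let-7-5p maps to 2L:18472044-18472064 and let-7-3p to 2L:18472082-18472103. miR-125-5p maps to 2L:18472343-18472364 and miR-125-3p to 2L:18472382-18472402. For 6 of 6 arms these table coordinates equal those of an annotated mature miRNA. No other miRNA locus of the table lies within 50 kb. The protein-coding gene CG10283 runs on the opposite strand and overlaps the last 169 bp of lncRNA:let7C, outside the hairpins.

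**Figure D1:**
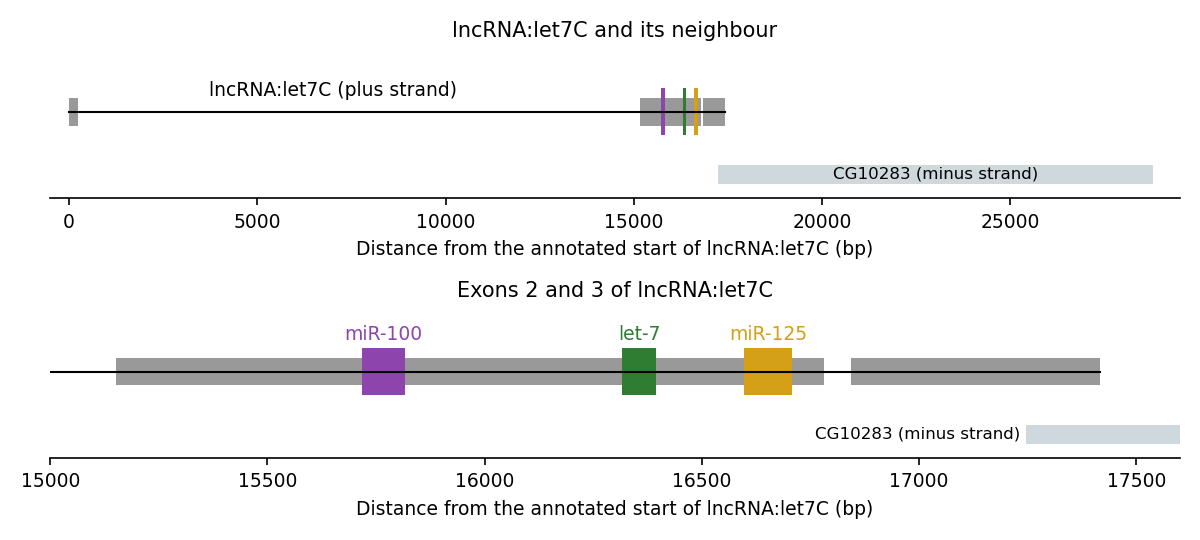
Position of the 3 hairpins, as distance in bp from the annotated start of lncRNA:let7C, for the whole gene with its neighbour (top) and enlarged for exons 2 and 3 (bottom). Grey boxes are exons, coloured boxes are hairpins and the light box is CG10283; the hairpins sit in exon 2, 500 bp and 203 bp apart, and CG10283 does not reach them.

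The let-7 complex was a small part of the ovarian miRNA counts, and its share depended far more on the number of the library than on the knockdown. It took 0.503% of miRNA counts in Ars2KD 1 (exact Clopper-Pearson 95% interval 0.486 to 0.520%) and 0.0275% in Ars2KD 2 (0.0258 to 0.0293%). In wKD 1 it took 0.580% (0.565 to 0.594%) and in wKD 2 0.0618% (0.0596 to 0.0642%). These shares rest on 3286, 1013, 6125 and 2817 counts. Such intervals cover counting error only, since without molecular identifiers each read need not be a separate molecule. Both libraries numbered 1 were higher than both numbered 2, and at each number Ars2KD was lower than wKD. The difference of the group means was -0.0557 points, and the groups overlapped (two-sided exact permutation test, p = 0.667, adjusted p = 0.857 over 9 composition comparisons). With 2 libraries against 2 this test cannot give a p below 0.333.

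let-7-5p, the arm known as mature let-7, was the most abundant arm of the complex on the mean of the 4 libraries. It had 2465 counts in Ars2KD 1, 285 in Ars2KD 2, 4870 in wKD 1 and 1295 in wKD 2. These are 3772, 77.4, 4610 and 284 CPM. On table totals the libraries numbered 1 stood 48.7-fold above number 2 within Ars2KD and 16.2-fold within wKD, and Ars2KD 2 held the lowest level. With TMM scaling the levels were 1701, 250, 2087 and 432 CPM in the same order, so the direction stayed and the shift was smaller. The group mean was 1925 ± 2612 CPM in Ars2KD, beside 2447 ± 3058 CPM in wKD (SD, n = 2), so the SD exceeded the mean in each group. let-7-3p, the opposite arm, had 26, 3, 46 and 12 counts in the same order, or 39.8, 0.815, 43.5 and 2.63 CPM. Its drop from number 1 to number 2 was 5.61 on the log2 scale within Ars2KD, as for let-7-5p, and within wKD the values were -4.05 for the 3p and -4.02 for the 5p arm.

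miR-100-5p, the product of the first hairpin, had 474 counts in Ars2KD 1, 536 in Ars2KD 2, 780 in wKD 1 and 1033 in wKD 2. Its levels were 725, 146, 738 and 227 CPM. On table totals the libraries numbered 1 were nearly level with each other, and Ars2KD 2 was again the lowest. The mean was 435 ± 410 CPM in Ars2KD, beside 483 ± 362 CPM in wKD (SD, n = 2). Its shift between numbers on table totals was smaller than that of let-7-5p, with log2 changes of -2.32 within Ars2KD and -1.70 within wKD. With TMM scaling the levels were 327, 470, 334 and 345 CPM in the same order. On that scale miR-100-5p was higher in number 2 within both groups, and Ars2KD 2 was the highest. miR-100-3p had 21, 0, 29 and 23 counts, or 32.1, 0, 27.4 and 5.05 CPM. The 0 counts in Ars2KD 2 allow a level of up to 0.815 CPM (3 counts).

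miR-125-5p, the lin-4 relative, had 297 counts in Ars2KD 1, 150 in Ars2KD 2, 390 in wKD 1 and 398 in wKD 2. These correspond to 454, 40.7, 369 and 87.4 CPM. Ars2KD held both the highest and the lowest of the 4 values, so the control libraries lay inside the range of the knockdown libraries. The mean was 248 ± 293 CPM in Ars2KD, beside 228 ± 199 CPM in wKD (SD, n = 2). miR-125-3p had 3, 39, 10 and 56 counts, or 4.59, 10.6, 9.47 and 12.3 CPM. On table totals it was the arm of the complex that was higher in number 2 than in number 1 within both groups, with log2 changes of 1.21 within Ars2KD and 0.38 within wKD. For comparison, the log2 change from number 1 to number 2 over tested loci with counts in both libraries had a median of -2.70 within Ars2KD (quartiles -5.55 and -0.92, 130 loci) and -1.95 within wKD (quartiles -4.36 and -0.05, 140 loci).

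**Figure D2:**
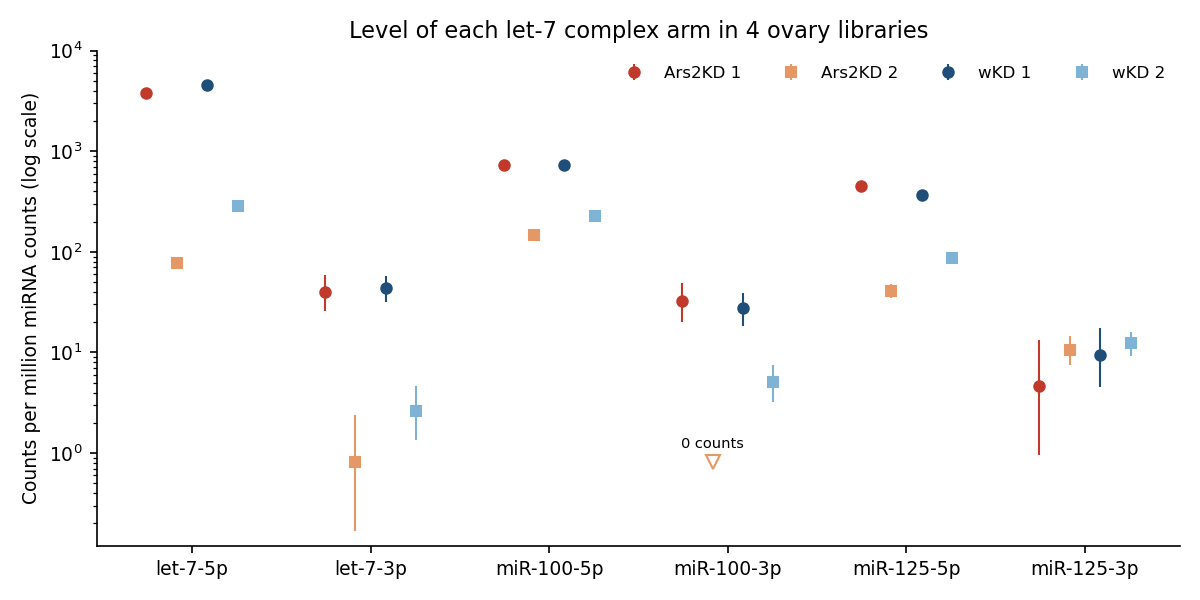
Level of each arm in CPM of the miRNA table total (log axis) in the 4 libraries, with exact 95% counting intervals as bars. let-7-5p, let-7-3p, miR-100-5p and miR-125-5p are higher in both libraries numbered 1 (circles) than in both numbered 2 (squares), and the open triangle marks the 0 counts of miR-100-3p in Ars2KD 2 at the 0.815 CPM that 3 counts would give.

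The 6 arms are 21 or 22 nt long, but how well each sequence enters a library is not known here, so their order is one of counts. It was not the same in every library. In both libraries numbered 1 and in wKD 2 the order was let-7-5p, miR-100-5p and miR-125-5p, whereas in Ars2KD 2 miR-100-5p stood above let-7-5p. Among all loci, let-7-5p ranked at 32, 55, 32 and 46 by counts in Ars2KD 1, Ars2KD 2, wKD 1 and wKD 2. miR-100-5p ranked at 57, 48, 56 and 50, and miR-125-5p at 66, 64, 70 and 69. By mean CPM over the 4 libraries, let-7-5p ranked 36 at 2186 ± 2342 CPM (SD, n = 4), between miR-305-3p (2583 ± 1516 CPM) and miR-14-3p (1721 ± 2011 CPM). miR-100-5p ranked 61 at 459 ± 317 CPM, next to miR-998-5p and miR-310-3p, and miR-125-5p ranked 74 at 238 ± 205 CPM, next to miR-34-3p and miR-965-5p. The 3p arms ranked 117 (let-7), 125 (miR-100) and 134 (miR-125). For each of the 6 arms the SD over the libraries exceeds the step to either neighbour.

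No arm of the complex differed between Ars2KD and wKD beyond the spread between libraries. In edgeR's quasi-likelihood test with TMM scaling and Benjamini-Hochberg adjustment over the 152 loci, 0 of 6 arms were called higher or lower at an adjusted p under 0.05. In each direction 0% of all tested loci were called. No locus reached an unadjusted p under 0.05, and neither DESeq2 nor limma-voom called any locus or gave an unadjusted p under it. The log2 ratio of Ars2KD over wKD was -0.37 (SE 1.71) for let-7-5p, 0.23 (SE 1.46) for miR-100-5p and 0.17 (SE 1.47) for miR-125-5p. For the 3p arms it was -0.20 (SE 2.15) for let-7-3p, -0.46 (SE 2.46) for miR-100-3p and 0.65 (SE 2.14) for miR-125-3p. The adjusted p of each arm was 0.997 in edgeR. 3 of the 6 arms had a ratio above 0, with a median of -0.02, beside 83 of 152 tested loci and a median of 0.06. Standard errors above 1 on the log2 scale mean that a change of 2-fold in either direction lies within the error of every arm. These errors hold the shift between numbers, as this fit has no replicate block. With the number as a block, the log2 ratio was -0.54 for let-7-5p, 0.21 for miR-100-5p and 0.14 for miR-125-5p, and 0 loci were called.

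The direction of several ratios changed when 1 library was left out or with the scaling. A fit without 1 library leaves the numbers unequal between the groups, so the shift between numbers enters its ratios. Without Ars2KD 2 the fitted log2 ratio of let-7-5p was 0.40, and without wKD 1 it was 1.22, whereas without Ars2KD 1 it was -2.41. For miR-125-5p it was -0.27 without Ars2KD 1 and -0.10 without wKD 2. For miR-100-5p it was -0.08 without Ars2KD 2. Scaling to the table totals in place of TMM moved the median log2 ratio of all tested loci from 0.06 to -0.18 and the share of loci above 0 from 54.6% to 36.8%. Under it miR-100-5p turned to -0.15 and miR-125-3p to -0.50, and miR-125-3p was also below 0 in limma-voom, at -0.10.

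**Figure D3:**
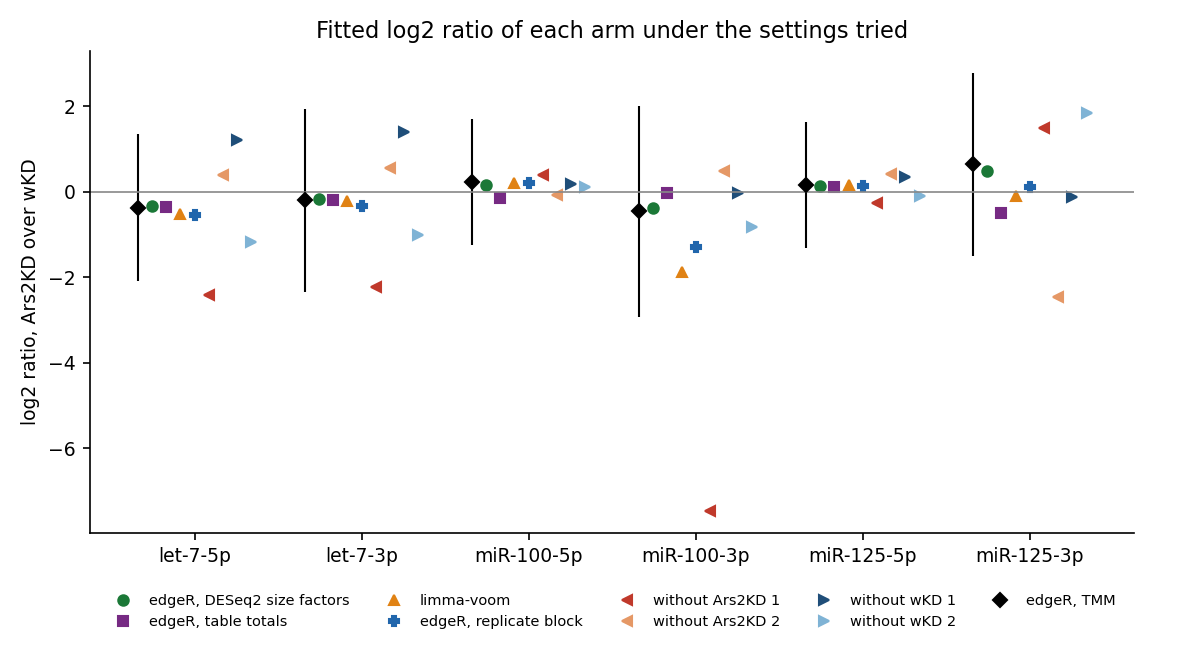
Fitted log2 ratio of Ars2KD over wKD for each arm under edgeR with TMM (black, bars show 1 SE) and under other scalings, tools and with each library left out. For let-7-5p the values run from -2.41 without Ars2KD 1 to 1.22 without wKD 1, and the point at -7.46 for miR-100-3p without Ars2KD 1 is a fit against 0 counts and no bound.

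Compared within a number, on CPM of the table total, let-7-5p was lower in Ars2KD than in wKD both times. Its log2 ratio was -0.29 at number 1 (95% counting interval -0.36 to -0.22) and -1.88 at number 2 (-2.07 to -1.69), which is 1.22-fold and 3.67-fold lower. With TMM scaling the same ratios were -0.29 and -0.79. The TMM factors were 2.22 for Ars2KD 1, 0.310 for Ars2KD 2, 2.21 for wKD 1 and 0.658 for wKD 2. TMM scaling therefore raises every ratio at number 2 by the same amount. let-7-3p gave -0.13 (-0.88 to 0.59) and -1.69 (-4.16 to 0.20), so its counts could not resolve a direction, and TMM scaling gave -0.61 at number 2. miR-100-5p was level at number 1, at -0.03 (-0.19 to 0.14), and lower at number 2, at -0.64 (-0.79 to -0.49), where TMM scaling turned it to 0.45. miR-125-5p was higher at number 1, at 0.30 (0.08 to 0.52), and lower at number 2, at -1.10 (-1.38 to -0.83), and TMM scaling gave 0.29 and -0.01. miR-125-3p gave -1.04 (-3.54 to 0.91) and -0.21 (-0.84 to 0.40), and for number 2 TMM scaling gave 0.87. miR-100-3p gave 0.23 (-0.66 to 1.09) at number 1. At number 2 it had 0 counts in Ars2KD against 23 in wKD. The wKD 2 level was 6.20-fold above the floor of 3 counts in Ars2KD 2 on table totals and 2.92-fold above it with TMM scaling. This leaves out the counting error of the 23 counts, and the upper end of the 95% counting interval of the log2 ratio was -2.22 on table totals and -1.13 with TMM scaling.

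The ratios of the 5p arms lay between the quartiles of the tested loci at each number. On table totals, 4 of the 6 arms were lower in Ars2KD at both numbers, beside 40.8% of the tested loci. Of these arms only let-7-5p had counting intervals below 0 at both numbers. With TMM scaling let-7-5p and let-7-3p stayed lower at both. miR-100-5p and miR-125-3p turned to 0.45 and 0.87 at number 2. At number 2 the median log2 ratio over 127 tested loci with counts in both libraries was -0.95 with quartiles of -1.94 and -0.23, and 108 of them were below 0. The -1.88 of let-7-5p falls between the lower quartile and that median, and so does the -1.10 of miR-125-5p, while the -0.64 of miR-100-5p lies above the median. At number 1 the median over 151 loci was 0.03, with quartiles of -0.46 and 0.32, and the let-7-5p, miR-100-5p and miR-125-5p ratios lay between them. For miR-125-3p the -1.04 at number 1, from 3 and 10 counts, lay below the lower quartile, and the -0.21 at number 2 just above the upper one. miR-100-3p, with 0 counts in Ars2KD 2, is not among the 127 loci and was not placed at number 2. In CPM of the table total the groups overlapped for 6 of 6 arms. Over all tested loci the groups were apart with Ars2KD below for 7.24% and with Ars2KD above for 1.32%.

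Because the hairpins share 1 transcript, their proportions were compared within each library, where no scaling between libraries enters. They are proportions of counts, which need not equal those of the molecules. let-7 made up 75.8% of the counts of the complex in Ars2KD 1, 28.4% in Ars2KD 2, 80.3% in wKD 1 and 46.4% in wKD 2. It was the main product in both libraries numbered 1 and, by a smaller margin, in wKD 2. miR-100 made up 15.1%, 52.9%, 13.2% and 37.5%, and miR-125 9.13%, 18.7%, 6.53% and 16.1%, in the same order. At each number the share of let-7 was lower in Ars2KD, with differences of -4.45 points at number 1 and -18.0 points at number 2. The share of miR-100 was higher by 1.86 and 15.4 points, and that of miR-125 by 2.60 and 2.54 points, in both cases at number 1 and number 2 in turn. The groups overlapped for all 3 shares, with pooled differences of -11.2, 8.64 and 2.57 points (two-sided exact permutation tests, p = 0.667 and adjusted p = 0.857 for each).

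The same could be read from ratios of the 5p arms. let-7-5p over miR-100-5p was 5.20 (95% counting interval 4.71 to 5.75) in Ars2KD 1 and 0.532 (0.459 to 0.615) in Ars2KD 2. In wKD 1 it was 6.24 (5.79 to 6.74) and in wKD 2 1.25 (1.15 to 1.36). The ratio was lower in Ars2KD at each number, with log2 differences of -0.26 and -1.24, but the 2 libraries of a group differed by more than that. let-7-5p over miR-125-5p was 8.30, 1.90, 12.5 and 3.25 in the order used above, with log2 differences of -0.59 and -0.78 within the numbers. The ratio of miR-100-5p over miR-125-5p varied least, at 1.60, 3.57, 2 and 2.60, with log2 differences of -0.33 and 0.46. None of these 3 ratios separated the groups (two-sided exact permutation tests, p = 0.667, 0.667 and 1).

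Arm balance was compared as the share of the 5p arm in the counts of each hairpin. For let-7 the 5p arm made up 98.96% of the hairpin's counts in Ars2KD 1, 98.96% in Ars2KD 2, 99.06% in wKD 1 and 99.08% in wKD 2. The groups were apart by -0.116 points, -0.108 at number 1 and -0.124 at number 2, with p = 0.333, the smallest this exact test allows, and adjusted p = 0.857. let-7 was 1 of 3 hairpins (5.56%) with groups apart, among the 54 that had at least 50 counts in every library and arms at a single locus. The counting intervals of the 4 shares of let-7 overlap. For miR-100 the 5p share was 95.8%, 100%, 96.4% and 97.8%. Within the numbers the miR-100 difference was -0.658 and 2.18 points, and the groups overlapped. For miR-125 the 5p share was 99.0%, 79.4%, 97.5% and 87.7%, so both libraries numbered 2 held more of the 3p arm. Within the numbers the miR-125 difference was 1.50 and -8.30 points, and the groups overlapped (exact permutation p = 1).

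Across the 4 libraries the 5p share ranged over 4.24 points for miR-100 and 19.6 points for miR-125, beside a median of 4.07 points over the 54 hairpins, with quartiles of 0.359 and 32.3. For let-7 it ranged over 0.126 points, but a share this close to 100% has little room to move, and its 3p arm had 26, 3, 46 and 12 counts. The 95% counting interval of the let-7 share in Ars2KD 2, 97.0 to 99.8%, is wider than that range.

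**Figure D4:**
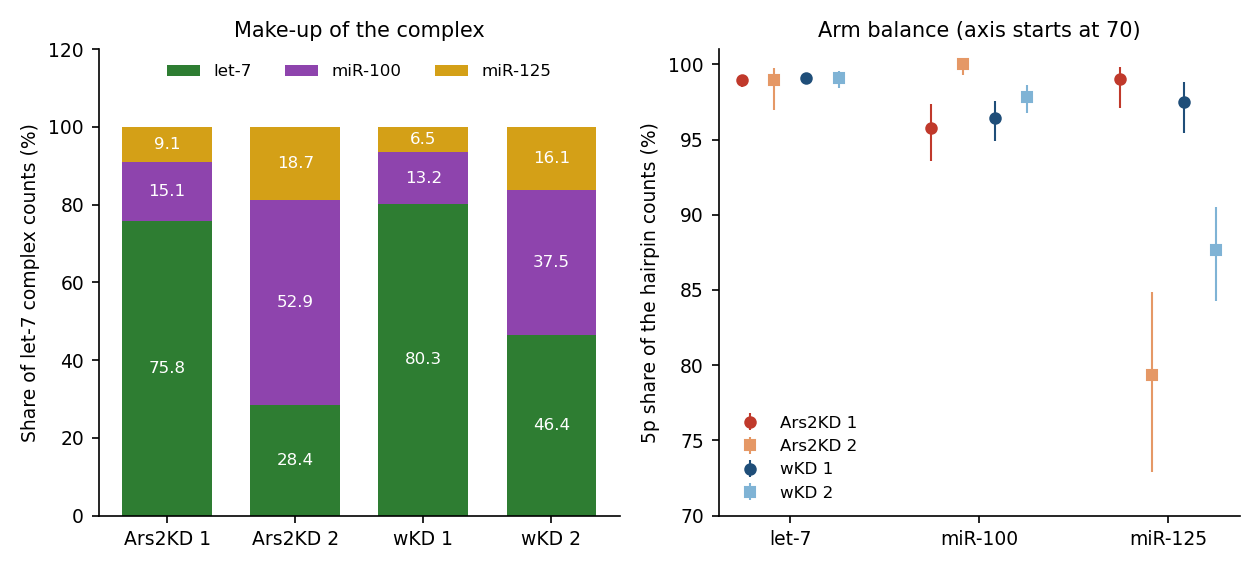
Left, share of each hairpin in the counts of the complex per library, and right, 5p share of each hairpin per library with exact 95% intervals (axis from 70%). The share of let-7 is 75.8% and 80.3% in the libraries numbered 1 and 28.4% and 46.4% in those numbered 2, and the 5p share of miR-125 falls to 79.4% in Ars2KD 2.

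The level of the complex was also set against miRNAs of the 2 main ovarian tissues. For each count of the complex there were 29.3 counts of the follicle cell miRNAs in Ars2KD 1, 341 in Ars2KD 2, 22.0 in wKD 1 and 174 in wKD 2. For miR-184 there were 23.8, 1729, 19.9 and 567 counts. The complex was lower against both summed references in the libraries numbered 2, and lower in Ars2KD at each number. Against miR-8, a marker of epithelial somatic cells, the directions were mixed and were not tested. miR-8 had 100951, 17623, 105924 and 91510 counts in the same order, and the complex 3286, 1013, 6125 and 2817. Against miR-8 the complex was higher in Ars2KD 2 than in Ars2KD 1, but lower in wKD 2 than in wKD 1. It was lower in Ars2KD at number 1 and higher at number 2. At number 2 the follicle cell difference was carried by miR-989, with 301 counts per count of the complex in Ars2KD 2 and 118 in wKD 2. miR-994 gave 25.2 and 23.4 there, and miR-318 went the other way, with 14.0 in Ars2KD 2 and 32.9 in wKD 2. At number 1 miR-989 gave 14.1 in Ars2KD 1 and 11.2 in wKD 1, miR-994 13.6 and 9.27, and miR-318 1.62 and 1.56. On the log2 scale the ratio to follicle cell miRNAs differed between Ars2KD and wKD by -0.41 at number 1 and -0.97 at number 2, with a pooled difference of -0.69. The ratio to miR-184 differed by -0.26 and -1.61, with a pooled difference of -0.93. The groups overlapped in both ratios (two-sided exact permutation tests, p = 0.667, adjusted p = 0.857).

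The arms of the complex did not share 1 profile over the 4 libraries. Likeness was measured as the root mean square difference of log2 CPM after TMM scaling, each profile centred on its own mean over 4 libraries, where a small value means alike. let-7-5p and let-7-3p differed by 0.20, and 2.05% of the other loci were closer to let-7-5p than its own 3p arm was. miR-100-5p and miR-125-5p differed by 0.43. let-7-5p differed from miR-100-5p by 1.47 and from miR-125-5p by 1.07, and 46.6% and 36.3% of the other loci were closer to it than these neighbours on the same transcript. miR-125-5p and miR-125-3p differed by 1.67. The loci most like let-7-5p were miR-1009-3p (0.15), miR-92b-5p (0.15) and miR-283-5p (0.19). The first 2 of these had at most 20 counts in any library, while miR-283-5p had 6642, 1039, 12829 and 4074 counts. Closest to miR-100-5p were miR-306-5p (0.12), miR-996-5p (0.14) and miR-316-3p (0.17). Closest to miR-125-5p were the follicle cell miRNA miR-994-5p (0.09), then miR-995-3p (0.15) and miR-959-3p (0.18), the last with 13, 6, 21 and 14 counts. The median over tested loci was 1.53 for let-7-5p, 1.36 for miR-100-5p and 1.24 for miR-125-5p. All these profiles share the 4 libraries and their depths.

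Related miRNAs outside the complex are listed beside all tested loci. No locus of the 152 tested was called, so none of the lists could hold a call. Of these loci 54.6% had a log2 ratio above 0, with a median of 0.06. Of the ecdysone-linked miR-34, miR-14 and miR-8, 6 of 6 arms were tested, 3 had a log2 ratio above 0, 0 were called, and the median was -0.06. miR-34-5p had 4080, 1272, 5506 and 760 counts with a log2 ratio of 0.59 (SE 1.70), and miR-14-5p had the highest ratio of the list at 2.33 (SE 2.23). Of the 4 arms of miR-10 and miR-993, relatives of miR-100 and miR-125 in sequence, 2 were tested and 0 called. miR-10-5p had 47, 4822, 64 and 7969 counts and a log2 ratio of 0.66 (SE 2.45), so it was higher in the libraries numbered 2, the reverse of miR-100-5p in CPM. The follicle cell list had 6 of 6 arms tested, 3 above 0, 0 called and a median of -0.09. The list of miR-184 and the mir-309 and mir-310 clusters had 12 of 32 arms tested, 6 above 0, 0 called and a median of -0.12.

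Small RNAs of 24 to 29 nt, the range of most piRNAs in the fly, had 1 count in all over the repeats at the locus. lncRNA:let7C contains 19 annotated repeat copies, all simple or low-complexity, and together they had 0, 0, 0 and 1 counts in Ars2KD 1, Ars2KD 2, wKD 1 and wKD 2. Within 10 kb of the hairpins 20 copies, 18 of them simple or low-complexity, had the same 0, 0, 0 and 1 counts. Repeats of this kind rarely had a count anywhere, since 3.54% of the 97061 simple or low-complexity copies in the table had one in any library, beside 1 of 19 in the gene. The totals of that table were 46218, 169124, 64395 and 323180 counts. Reads of this length over the gene but outside annotated repeats were not analysed here.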

How the data were processed

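Small RNAs of 19 to 29 nt from fly ovaries were measured in 4 libraries. The authors deposited raw counts per mature miRNA locus and raw counts of 24 to 29 nt reads per repeat copy, per the file headers, and both were used unchanged (columns not used: 0). Bowtie2, featureCounts, Trimmomatic, FastQC and the dm6 build appear in the submitters' processing notes. How strand and reads with several positions were handled is not given in the sources used here. edgeR 4.0.16 in R 4.3.3 (TMM, filterByExpr with the group, quasi-likelihood test, no replicate block, threshold 0.05) was fitted to the whole table. Alternatives used DESeq2 1.42.0 and limma 3.58.1 (voom), other scalings, no filter, and each library left out. CPM without further mention is scaled to the miRNA table total. Shares were tested by exact permutation over libraries. All arms of the 3 hairpins are named, with the 3 tested loci most like each 5p arm (prior count 2) and its neighbours in level. Members and lists were chosen with earlier results of these data known. miRNA sequences were not used here. Tables and figures were made in Python 3.11.15 (scipy 1.17.1, numpy 2.4.6, matplotlib 3.10.9, pandas 2.3.3).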

Additional observations from a re-analysis of the deposited data

How the results depend on the processing

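No locus was called under any of the alternatives run, and the adjusted p of the 6 arms stayed at or above 0.918 (edgeR, DESeq2 or limma with Benjamini-Hochberg adjustment). Of 66 alternative log2 ratios of the arms, 15 changed sign, and the cause was not tested. Fits without 1 library also leave the numbers unequal between the groups. Scaling to the table total or to the total of both tables gave -0.15 and -0.15 for miR-100-5p and -0.50 and -0.49 for miR-125-3p, and limma-voom gave -0.10 for miR-125-3p. Leaving out 1 library moved the log2 ratio from -0.076 to 0.39 for miR-100-5p, -7.46 to 0.50 for miR-100-3p, -2.41 to 1.22 for let-7-5p, -2.23 to 1.39 for let-7-3p, -0.27 to 0.43 for miR-125-5p and -2.45 to 1.85 for miR-125-3p. It moved the 5p share difference from -1.36 to 2.88 points for miR-100 and -13.2 to 6.42 for miR-125, and the share within the complex from -34.9 to 12.5 points for let-7, -10.3 to 27.6 for miR-100 and -2.22 to 7.36 for miR-125. The share of the complex in miRNA counts moved from -0.315 to 0.203 points, its log2 ratio to follicle cell miRNAs from -2.46 to 1.08 and that to miR-184 from -4.03 to 2.16. The labels do not say what a library number shares. With the number as a replicate block, the log2 ratio was -0.54 for let-7-5p, 0.21 for miR-100-5p and 0.14 for miR-125-5p, 0 loci were called, and 4 loci higher and 4 lower had an unadjusted p under 0.05. Deviations from the group means correlated by 0.90 between same-numbered libraries across 152 loci. The 3p arms had few counts, 0 to 56 per library, which limits what their ratios can resolve.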
